A study of Mus musculus with 4 samples.

Results

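The 9 genes described here, *Tcf7l2*, *Prrx1*, *Prrx2*, *Twist1*, *Twist2*, *Meox1*, *Meox2*, *Lmx1b* and *Shox2*, encode transcription factors of limb mesenchyme and connective tissue. They were chosen by name from the 23284 gene symbols that were counted. All 9 were detected in every sample, with at least 518 counts, and all 9 were among the 15645 genes that passed the filter on low counts. RNA was sequenced from Osr1+ cells, which were live GFP-expressing cells sorted from digested limbs of C57BL/6J mouse embryos at E13.5. There were 2 samples from Osr1 GCE/+ embryos and 2 from Osr1 GCE/GCE embryos, and the question was how gene expression in these cells depends on *Osr1*. GCE is a knock-in of GFP and tamoxifen-inducible Cre at *Osr1*, so GCE/+ cells kept 1 intact allele and GCE/GCE cells had none. Both groups carried the GCE allele and no wild-type sample was included. The sort relied on GFP made from the disrupted locus, so the cells of both genotypes were selected by *Osr1* promoter activity and not by a marker independent of it.

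Limb mesenchyme derives from the lateral plate and gives rise to cartilage, tendon and the connective tissue of muscle, whereas the muscle cells migrate in from somites. Part of the muscle connective tissue (MCT) is marked by TCF7L2, a high mobility group protein that binds DNA and partners β-catenin in the Wnt pathway. This protein is also called Tcf4 in the MCT field, although the gene symbol *Tcf4* belongs to an unrelated basic helix-loop-helix (bHLH) gene. By antibody staining, the study found the protein in only part of the sorted Osr1+ cells at E13.5. PRRX1 and PRRX2 are paired-related homeodomain proteins of early limb and craniofacial mesenchyme. TWIST1 and TWIST2 are bHLH proteins that maintain mesenchymal cells in an undifferentiated state, and MEOX1 and MEOX2 are homeodomain proteins of somites, with MEOX2 also needed for limb muscle. LMX1B, a LIM homeodomain protein, specifies dorsal limb identity, and SHOX2 is a homeodomain protein needed for the proximal limb skeleton.

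Total counts were between 52121596 and 61402140 per sample, and 3 counts, taken as the floor of detection, amounted to at most 0.0574 CPM (the count of a gene relative to the library total after TMM scaling). This floor reflects counting only and leaves out the spread between replicates. *Osr1* (chr12:9570116-9581500, GRCm38) was at 81.9 and 79.1 against 11.9 and 13.9 CPM, where values before "against" belong to GCE/+ replicates 1 and 2 and those after it to GCE/GCE replicates 1 and 2, here and in what follows. On the log2 scale it fell by 2.64 (SE 0.11, adjusted p = 5.939e-05, edgeR), in the direction the labels give. Mesenchymal markers were abundant, with *Col3a1*, *Col1a2*, *Col1a1*, *Pdgfra* and 4 others summing to between 17370 and 22950 CPM. Among markers of other cells, 13 of 13 cartilage genes had non-overlapping groups with GCE/GCE above GCE/+, beside 38.4% of all genes without overlap in either direction. The cartilage sums were 983 and 1429 against 2029 and 2180 CPM. At an adjusted p of 0.1, edgeR called 6 of the 13 and DESeq2 called 5, beside 1.82% and 3.45% of all genes they tested. Of 8 tendon genes, edgeR called 3 higher (*Mkx*, *Tnmd*, *Fmod*) and 1 lower (*Kera*), beside 1.82% of all genes in either direction. DESeq2 called 4 higher, the same genes and *Scx* (9.985 and 7.095 against 13.61 and 13.82 CPM), and 1 lower (*Kera*), beside 3.45%. The tendon sums were 1220 and 1137 against 1540 and 1285 CPM. Of 12 macrophage genes, 9 were called lower by edgeR, beside 0.927% of all genes, and 10 by DESeq2. The macrophage sums were 340.4 and 349.9 against 214 and 151 CPM. None of 9 myogenic (*Myod1* 8.15 to 9.77 CPM), 8 endothelial, 5 erythroid, 6 epidermal and 6 Schwann cell genes tested was called by edgeR, although 1 myogenic (*Myh3*), 5 endothelial and 2 epidermal genes (*Trp63*, *Krt14*) had an unadjusted p under 0.05 and DESeq2 called 1 endothelial gene (*Tie1*). GCE/GCE replicate 1 stood apart in *Xist*, at 1142 CPM where no other sample exceeded 2.63 CPM. In bulk RNA of this kind, fewer cells of a type and less RNA per cell cannot be told apart. The tests rest on these 4 samples only, and the error of each gene was moderated with that of all genes tested.

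*Twist1* and *Prrx1* were the most abundant of the factors per unit of length, and *Lmx1b* was the least. Levels between genes were compared as CPM per kilobase of the longest transcript. In GCE/+ replicates 1 and 2, *Twist1* was at 110.4 and 93.3 CPM per kb, *Prrx1* at 71.5 and 73.0 CPM per kb and *Meox2* at 51.1 and 45.4 CPM per kb. These were followed by *Tcf7l2* at 39.5 and 37.2 CPM per kb, *Twist2* at 29.3 and 21.5 CPM per kb and *Meox1* at 24.7 and 23.8 CPM per kb. *Prrx2* was at 19.7 and 17.0 CPM per kb, *Shox2* at 12.9 and 16.6 CPM per kb and *Lmx1b* at 1.78 and 2.58 CPM per kb. Neighbours in this order did not overlap between the GCE/+ samples, with the exception of *Twist2* and *Meox1*, whose values overlapped. The mean of the first gene was 46.8 times that of the last. The median tested gene was at 6.92 CPM per kb, so 8 of the 9 factors lay above it and *Lmx1b* lay below it. The order depended on the length used, beyond the leading genes too. Per kilobase of coding sequence *Prrx1* came first with 785.5 CPM per kb against 268 CPM per kb for *Twist1*, because the long *Prrx1* transcript holds a short coding sequence. By that length *Twist2* also passed *Meox2* (133.6 against 125.2 CPM per kb) and *Shox2* passed *Prrx2* (45.7 against 35.7 CPM per kb). Over the union of all exons *Meox2* and *Prrx1* exchanged ranks, as did *Meox1* and *Twist2*.

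**Figure D1:**
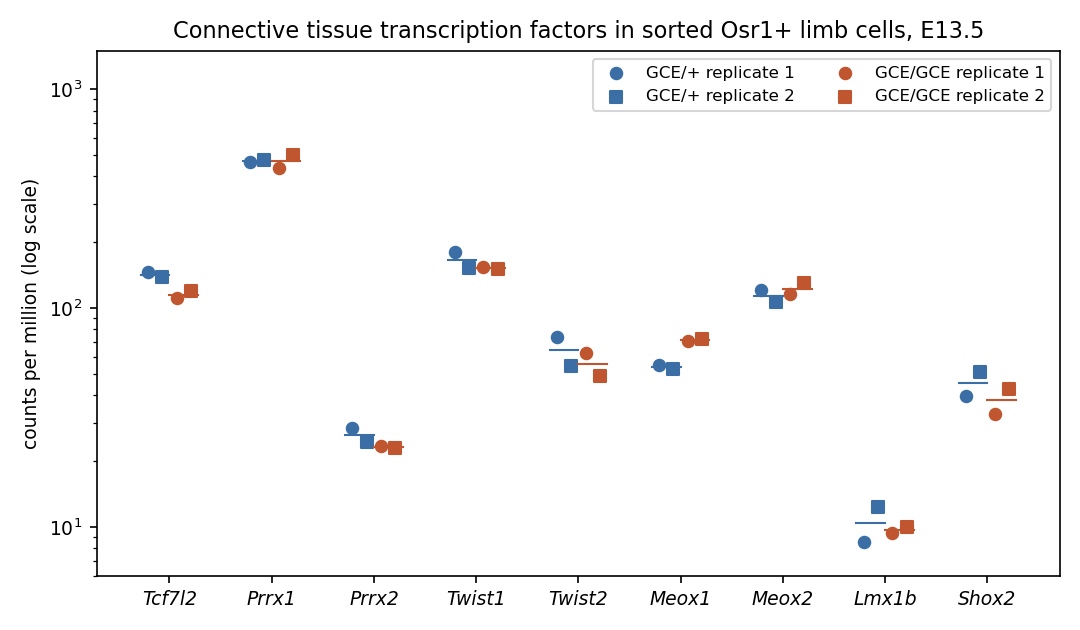
Each point is the level of 1 gene in 1 sample in CPM on a log axis, blue for GCE/+ and orange for GCE/GCE, circles for replicate 1 and squares for replicate 2, and short lines are group means of 2 samples. *Meox1* is the gene whose orange points sit clearly above the blue ones (71.1 and 72.4 against 55.1 and 53.0 CPM), and *Tcf7l2* and *Prrx2* are those whose orange points sit below the blue ones.

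Since 6 of the factors form 3 pairs of paralogs, the pairs are shown at the 90-base coding stretch, within 1 exon of each gene, where they are most alike. They show how far reads from the members of a pair can be told apart. Sequences are from GENCODE vM21 (GRCm38), 5′ to 3′ on the coding strand, with capitals for the bases that both paralogs share and lower case for those that differ.
Prrx1: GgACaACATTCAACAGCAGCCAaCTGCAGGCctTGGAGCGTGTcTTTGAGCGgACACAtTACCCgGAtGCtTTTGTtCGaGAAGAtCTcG
Prrx2: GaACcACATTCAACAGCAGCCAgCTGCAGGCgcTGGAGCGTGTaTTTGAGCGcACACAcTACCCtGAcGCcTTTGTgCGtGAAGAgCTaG
Twist1: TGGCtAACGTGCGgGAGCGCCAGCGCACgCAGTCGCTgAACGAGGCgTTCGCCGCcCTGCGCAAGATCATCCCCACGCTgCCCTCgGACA
Twist2: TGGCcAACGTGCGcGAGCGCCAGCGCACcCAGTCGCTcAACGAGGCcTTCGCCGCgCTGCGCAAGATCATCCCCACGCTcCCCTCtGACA
Meox1: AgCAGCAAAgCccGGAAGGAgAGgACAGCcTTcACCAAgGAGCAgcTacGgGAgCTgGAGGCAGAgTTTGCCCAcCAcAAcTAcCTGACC
Meox2: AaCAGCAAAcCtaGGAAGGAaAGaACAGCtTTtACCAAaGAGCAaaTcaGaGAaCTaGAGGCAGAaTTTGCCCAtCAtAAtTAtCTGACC
The *Prrx1* stretch lies in exon 2 (minus strand, chr1:163261875-163261964) and the *Prrx2* stretch in exon 2 (plus strand, chr2:30878467-30878556), and 75 of the 90 bases were identical. The *Twist1* stretch (chr12:33958324-33958413) and the *Twist2* stretch (chr1:91801835-91801924) lie in exon 1 on the plus strand and shared 82 bases. The *Meox1* stretch (exon 2, minus strand, chr11:101879312-101879401) and the *Meox2* stretch (exon 2, plus strand, chr12:37167348-37167437) shared 69 bases. Over all annotated protein-coding transcripts, the longest run of identical bases was 19 for the Prrx pair, 23 for the Twist pair and 12 for the Meox pair, below the read length of 50. Ungapped 50-base windows differed at 5 or more, 3 or more and 7 or more positions, respectively. *Tcf7l2* and *Tcf7l1* differed at 4 or more positions in such windows and *Lmx1b* and *Lmx1a* at 5 or more. The assignment of single reads was not tested.

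Of the 9 factors, 1 passed the threshold between the genotypes. *Meox1* rose in GCE/GCE cells by 32.8%, and the other 8 missed the adjusted p of 0.1 (quasi-likelihood test of edgeR, two-sided, adjusted by Benjamini-Hochberg over all genes tested). Among all genes, 1.82% were called in either direction, 0.895% higher and 0.927% lower. The groups of 2 samples did not overlap for 3 factors, *Meox1*, *Tcf7l2* and *Prrx2*, beside 38.4% of all genes, so that this count is near the background. An unadjusted p under 0.05 was found for 2 factors, *Meox1* and *Tcf7l2*, beside 10.5% of all genes, and DESeq2 called the same 2 factors, beside 3.45% of the genes it tested. The log2 fold change was below 0 for 7 of the 9, with a median of -0.12 beside 0.0033 over all genes tested.

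**Figure D2:**
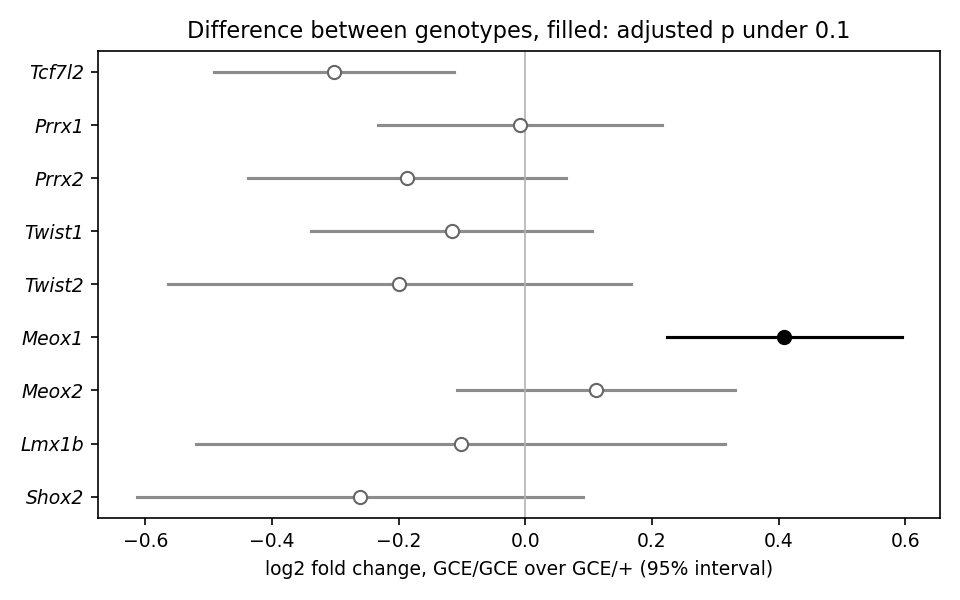
Points are log2 fold changes of GCE/GCE over GCE/+ (2 samples each) and lines their 95% intervals from the quasi-likelihood fit, filled in black where the adjusted p was under 0.1. Only the *Meox1* point is filled (0.41, interval 0.22 to 0.59), the *Tcf7l2* interval lies below 0 (-0.49 to -0.11) with an open point, and the other 7 intervals include 0.

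The Meox genes were the only pair with both log2 fold changes above 0, and 1 of them was called. *Meox1* (chr11:101877510-101894374) was at 55.1 and 53.0 against 71.1 and 72.4 CPM. Both GCE/GCE samples were higher than both GCE/+ samples, and replicates of a genotype lay within 0.06 of each other on the log2 scale. The log2 fold change was 0.41 (SE 0.08, 95% interval 0.22 to 0.59, adjusted p = 0.0695 by edgeR), a 1.33-fold rise with an interval of 1.17 to 1.51. DESeq2 gave an adjusted p of 0.009182. Among other settings, the call was lost with no filter on low counts (adjusted p = 0.1452, edgeR, with 19099 genes tested), without GCE/GCE replicate 2 (log2 fold change 0.40, adjusted p = 0.1926, edgeR), and at a threshold of 0.05. Without GCE/GCE replicate 1, the sample with *Xist* transcripts, the log2 fold change was 0.42 with an adjusted p of 0.09424 (edgeR, the remaining GCE/GCE sample assumed to vary like the GCE/+ samples).

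The cartilage sums given above differed in the same direction as *Meox1*. *Sox9*, which directs cartilage formation, was at 78.3 and 98.7 against 130.0 and 143.9 CPM. Of the 8 tendon genes, 6 had a log2 fold change above 0, and the median of the list was 0.51. The groups did not overlap for 5 with GCE/GCE above GCE/+ and for 1 with GCE/GCE below, beside 38.4% of all genes in either direction. *Tnmd*, a tendon membrane protein that was called higher, was at 15.8 and 7.88 against 50.4 and 48.9 CPM, and *Kera*, a matrix proteoglycan that was called lower, was at 117 and 104 against 64.1 and 71.05 CPM. The macrophage sums differed in the opposite direction. The part of these markers in the *Meox1* difference was not tested.

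*Meox2* (chr12:37108540-37179534) was at 120.5 and 107.1 against 115.8 and 130.1 CPM. The groups overlapped, and replicates of 1 genotype differed by 0.17 on the log2 scale. Its log2 fold change was 0.11 with a 95% interval of -0.11 to 0.33 (adjusted p = 0.8319, edgeR), which leaves room for a rise of up to 1.26-fold. It was 0.03 without either GCE/+ replicate 2 or GCE/GCE replicate 2, and 0.19 without either GCE/+ replicate 1 or GCE/GCE replicate 1.

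*Tcf7l2*, a marker of part of the MCT, was lower in both GCE/GCE samples, and the difference did not pass the threshold of the main test. The study saw no obvious deregulation of this gene, which it calls Tcf4, in cells or limbs that lack *Osr1*. The gene (chr19:55741820-55933654) was at 146.6 and 138.2 against 111.5 and 119.5 CPM. The groups did not overlap, and the gap between the nearest samples of different genotype exceeded the gap between replicates in each genotype. In log2 units the difference was -0.30 (SE 0.08, 95% interval -0.49 to -0.11, adjusted p = 0.1745 by edgeR), with a point estimate of -18.9%. With DESeq2 the estimate was again -0.30 and passed the threshold (adjusted p = 0.09917). Of the 4 edgeR fits that left out 1 sample, it passed in the one without GCE/+ replicate 2 (-0.34, adjusted p = 0.07915), in which the lone GCE/+ sample is assumed to vary like the GCE/GCE samples and 950 genes were called in all. It did not pass without GCE/+ replicate 1, GCE/GCE replicate 1 or GCE/GCE replicate 2 (adjusted p = 0.3278, 0.5905 and 0.3263, edgeR). The interval excludes 0 for this single gene and is not corrected for the number of genes tested. Of the mesenchymal markers, *Dcn* was at 517 and 375 against 316 and 242 CPM and *Lum* at 481 and 402 against 346 and 350 CPM, and none of the 8 was called by edgeR, although 3 were called lower by DESeq2 (*Dcn*, *Lum* and *Col3a1*) and 2 (*Dcn* and *Lum*) had an unadjusted p under 0.05. The macrophage sums were lower in the same samples as *Tcf7l2*, and their part in its difference was not tested.

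**Figure D3:**
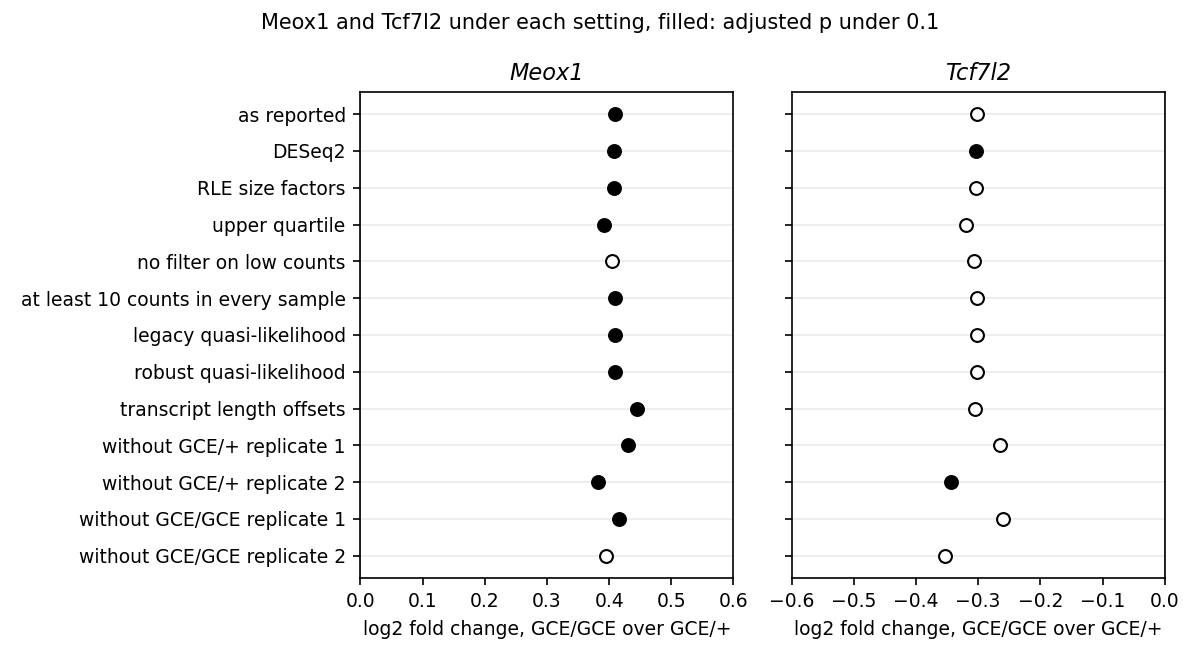
The log2 fold change of *Meox1* (left) and *Tcf7l2* (right), GCE/GCE over GCE/+, as reported and under each alternative named on the vertical axis, filled where the adjusted p was under 0.1. Among the settings drawn *Meox1* stays between 0.38 and 0.45 and loses its call with no filter and without GCE/GCE replicate 2, and *Tcf7l2* stays between -0.35 and -0.26 and is called with DESeq2 and without GCE/+ replicate 2.

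Neither paired-related gene was called. *Prrx1* (chr1:163245119-163313710) had the highest CPM of the 9, at 466 and 476 against 438 and 499 CPM. The GCE/GCE samples lay on either side of the GCE/+ samples. On the log2 scale they differed by -0.01 with a 95% interval of -0.23 to 0.22 (adjusted p = 0.9939, edgeR). As a fold of GCE/GCE over GCE/+ the interval ran from 0.85 to 1.16, so a change in either direction remained within the error. The sign turned without GCE/+ replicate 2 (0.0066) and without GCE/GCE replicate 1 (0.08), and the value was -0.03 without GCE/+ replicate 1 and -0.11 without GCE/GCE replicate 2. *Prrx2* (chr2:30834972-30881251) was at 28.4 and 24.5 against 23.55 and 22.9 CPM. Both GCE/GCE samples were below both GCE/+ samples, but GCE/+ replicate 2 was nearer to the GCE/GCE samples than to replicate 1. Its log2 fold change was -0.19 (95% interval -0.44 to 0.06, adjusted p = 0.6741, edgeR), with -0.08 without GCE/+ replicate 1 and -0.29 without GCE/+ replicate 2.

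Neither Twist gene was called. *Twist1* (chr12:33957671-33959829) was at 179.7 and 152.0 against 154.6 and 151.4 CPM. GCE/+ replicate 1 was high, and the other 3 samples were close together. The difference in log2 was -0.12 (95% interval -0.34 to 0.11, adjusted p = 0.822, edgeR), with 0.0036 without GCE/+ replicate 1 and -0.23 without GCE/+ replicate 2. *Twist2* (chr1:91801461-91848028) was at 73.95 and 54.3 against 62.6 and 49.1 CPM. Replicate 1 was the higher sample in both genotypes, and the replicates differed by more than the group means. Its log2 fold change was -0.20 (95% interval -0.56 to 0.17, adjusted p = 0.8094, edgeR), with 0.04 and -0.03 without GCE/+ replicate 1 and GCE/GCE replicate 2, and -0.40 and -0.39 without GCE/+ replicate 2 and GCE/GCE replicate 1. Over 1477 bases, *Twist2* exons overlap the antisense transcript Gm29100. That transcript was not among the counted genes and the library kit keeps no strand, so its reads cannot be told apart from those of *Twist2*.

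Neither limb patterning gene was called, and both had wide intervals. *Lmx1b* (chr2:33560965-33640511) was at 8.51 and 12.3 against 9.42 and 9.97 CPM. Both GCE/GCE values lay between the GCE/+ values, which differed by 0.54 on the log2 scale. This gave a log2 fold change of -0.10 (95% interval -0.52 to 0.32, adjusted p = 0.9495, edgeR), with -0.35 without GCE/+ replicate 1, 0.19 without GCE/+ replicate 2 and -0.07 without GCE/GCE replicate 1. *Shox2* (chr3:66971727-66981771) was at 39.6 and 51.2 against 33.0 and 42.8 CPM. Replicate 2 was the higher sample in both genotypes, by 0.37 in GCE/+ and 0.38 in GCE/GCE cells on the log2 scale. The log2 fold change was -0.26 (95% interval -0.61 to 0.09, adjusted p = 0.6758, edgeR). It was -0.06 without GCE/+ replicate 2 and -0.09 without GCE/GCE replicate 1, and -0.44 without GCE/+ replicate 1 and -0.46 without GCE/GCE replicate 2. The exons of *Shox2* share 153 bases with those of *Rsrc1* on the other strand.

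The balance within each pair was described by the log2 ratio of the paralogs' CPM in each sample, whose difference between genotypes does not depend on gene length. The *Meox1* to *Meox2* ratio was -1.13 and -1.01 against -0.70 and -0.84, without overlap and with a difference of means of 0.30. Per kilobase, *Meox1* made up 32.6% and 34.4% of the summed Meox level against 39.4% and 37.1%. *Meox2* was thus the more abundant of the pair in all 4 samples. The *Prrx1* to *Prrx2* ratio was 4.04 and 4.28 against 4.22 and 4.44, and the *Twist1* to *Twist2* ratio 1.28 and 1.49 against 1.30 and 1.62. In both of these pairs the genotypes overlapped and the difference of means, 0.17 and 0.08, was smaller than the gap between replicates of either genotype. *Prrx1* made up 78.4% to 82.8% of the summed Prrx level per kilobase and *Twist1* 79.0% to 82.7% of the Twist level. The ratios are given as a description, with no test. An exact permutation of 2 against 2 samples could not give a two-sided p below 0.333.

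**Figure D4:**
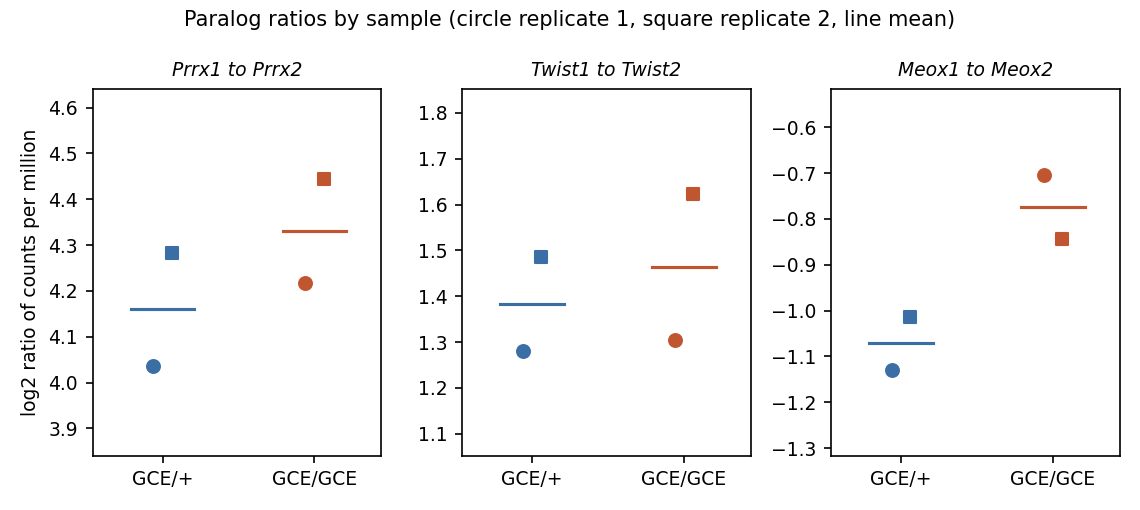
Each panel shows the log2 ratio of CPM of a pair of paralogs in the 4 samples, circles for replicate 1, squares for replicate 2 and lines for group means, on vertical axes of equal span. The GCE/GCE points of *Meox1* to *Meox2* (-0.70 and -0.84) lie above the GCE/+ points (-1.13 and -1.01), and the points of the other pairs overlap.

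Genes that act with or beside these factors were described from 6 lists of 93 genes, of which 92 were tested. edgeR called 1, or 1.09%, beside 1.82% of all genes. DESeq2 called 6, namely *Foxc1*, *Foxp1*, *Foxp2*, *Pax1*, *Meis3* and *Alx1*, beside 3.45% of all genes it tested. With edgeR, the number called varied when single samples were left out, as did the number over all genes. The gene that rose in both tests was *Foxc1*, a forkhead factor of mesenchyme, at 15.8 and 16.8 against 26.1 and 28.9 CPM. The rise was 0.76 on the log2 scale (SE 0.11, adjusted p = 0.03003 by edgeR). In the same list of 38 mesenchymal factors, *Foxd1* was at 1.66 and 2.79 against 4.63 and 3.61 CPM (adjusted p = 0.209, edgeR) and *Meis3* at 23.6 and 21.0 against 16.5 and 13.3 CPM (adjusted p = 0.1132, edgeR). The median log2 fold change of that list was 0.01. *Foxp1*, *Foxp2* and *Alx1* are named here for their DESeq2 call, and the first 2 of these were chosen after their values were seen.

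Of the 13 relatives and partners of TCF7L2, edgeR and DESeq2 called 0, and 0 had an unadjusted p under 0.05. They include β-catenin (*Ctnnb1*) and the Groucho-type corepressors (*Tle1*, *Tle2*, *Tle3* and *Tle4*), and their median log2 fold change was 0.06. The largest differences were those of *Tcf7*, at 10.7 and 8.82 against 8.87 and 6.55 CPM, and *Lef1*, at 12.7 and 14.1 against 17.2 and 14 CPM. Of 9 genes that are commonly read as outputs of Wnt signalling, edgeR and DESeq2 called 0, and 2 had an unadjusted p under 0.05. These were *Notum*, which inactivates Wnt ligands, at 7.29 and 5.39 against 4.53 and 3.99 CPM, and *Nkd2*, an inhibitor of the pathway, at 34.5 and 33.2 against 39.6 and 39.96 CPM, in opposite directions. *Axin2*, the most used of these outputs, was at 80.4 and 90.3 against 91.3 and 83.8 CPM, and is named here after its values were seen.

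Of 11 partners and inhibitors of Twist proteins edgeR and DESeq2 called 0, and 1 had an unadjusted p under 0.05, *Tcf21*, at 0.641 and 0.994 against 0.3445 and 0.343 CPM (named after its values were seen). *Tcf4*, which encodes an E protein that dimerises with them, was at 355 and 412 against 428 and 459 CPM (adjusted p = 0.5606, edgeR), and *Msc* at 5.55 and 5.18 against 4.77 and 4.67 CPM. Of 13 homeobox genes and LIM domain cofactors edgeR called 0, with 1 at an unadjusted p under 0.05 and 1 called by DESeq2. This was *Alx1*, a paired-type homeobox gene, at 4.60 and 3.52 against 2.14 and 2.25 CPM (log2 fold change -0.89, SE 0.20, adjusted p = 0.1084, edgeR). *Lhx2*, a LIM homeobox gene of the distal limb, was at 5.70 and 3.27 against 5.51 and 6.83 CPM.

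The Pax and somite factors had the highest median log2 fold change of the 6 lists of related genes, 0.48 over the 8 that were tested. This median falls between *Pax9* (0.38) and *Nkx3-2* (0.58). For 5 of the 8 the GCE/GCE values lay above the GCE/+ values without overlap, while 38.4% of all genes did not overlap in either direction. The 5 include 2 genes below 1 CPM. *Nkx3-2* was at 0.509 and 0.459 against 0.689 and 0.768 CPM. *Uncx* was at 0.0329 and 0.134 against 0.207 and 0.196 CPM, with GCE/+ replicate 1 under the floor. edgeR called 0 of the 8, with 2 at an unadjusted p under 0.05 (*Pax1* and *Pax9*), and DESeq2 called 1 (*Pax1*). *Pax1*, a paired-box gene of sclerotome and pectoral girdle, was at 19.3 and 14.4 against 28.8 and 23.0 CPM (log2 fold change 0.62, SE 0.16, adjusted p = 0.1498, edgeR). *Pax3*, which marks migrating muscle precursors, was at 1.10 and 1.13 against 2.53 and 1.26 CPM, with GCE/GCE replicate 1 apart from the other 3 samples. In the same samples the cartilage genes were at summed levels of 983 and 1429 against 2029 and 2180 CPM and the myogenic genes at 174 and 196 against 221 and 192 CPM, and the part of either in the values of this list was not tested.

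**Figure D5:**
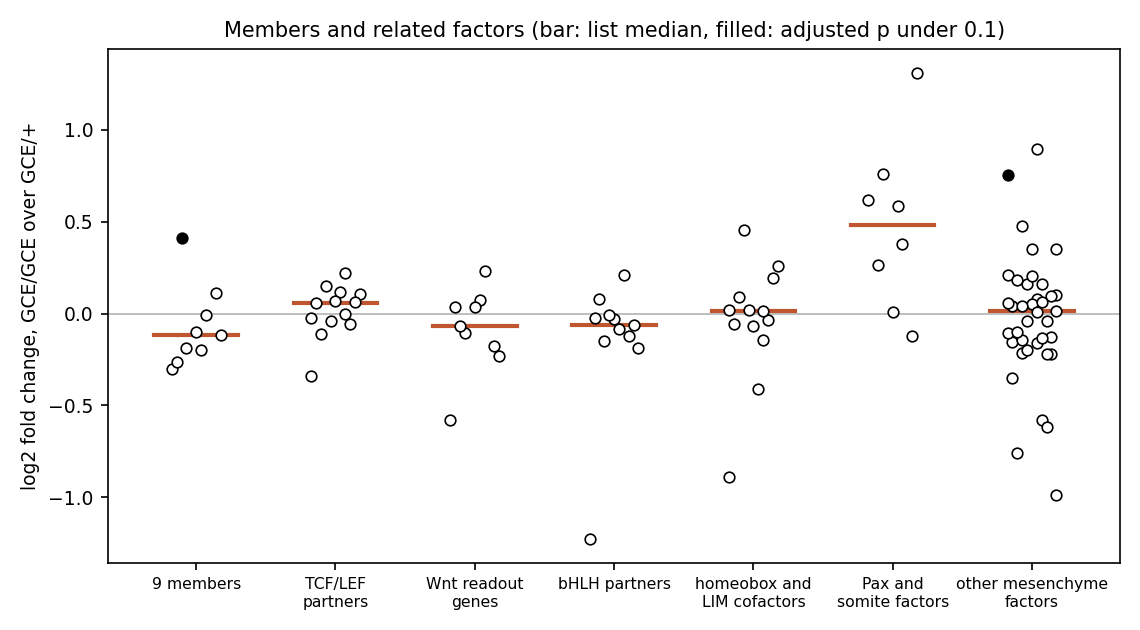
Each point is the log2 fold change of 1 tested gene, GCE/GCE over GCE/+, in the 9 members and in 6 lists of related genes, filled where the adjusted p was under 0.1, with orange bars at list medians. The filled points are *Meox1* (0.41) and *Foxc1* (0.76), and the bar of the Pax and somite factors stands at 0.48 while the others lie between -0.12 and 0.06.

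Profiles like that of *Meox1* were searched among the 9763 tested genes whose mean reached 10 CPM, by the Euclidean distance of centred log2 CPM over the 4 samples. Among the nearest were *Cdh3*, which encodes P-cadherin, at a distance of 0.054, with 72.5 and 67.7 against 94.35 and 92.0 CPM, and *Ttc15* at 0.059, with 35.2 and 34.6 against 44.1 and 45.1 CPM. With 4 samples, likeness of this kind describes these libraries only.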

How the data were processed

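RNA of sorted GFP-expressing limb cells was measured in 2 samples of each genotype. Per the study's methods, the authors aligned paired reads of 50 bases from an unstranded library to mm9 with TopHat2 and counted fragments per UCSC gene with HTSeq (intersection-strict), whose versions are not given in the sources used here. They deposited these as raw counts, without normalization, and genotype and replicate were taken from the sample labels.

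Genes were filtered (filterByExpr), normalized by TMM and tested with edgeR 4.0.16 (quasi-likelihood, legacy = FALSE) in R 4.3.3, two-sided, adjusted by Benjamini-Hochberg, at the threshold of 0.1 from the study's methods. The SE was derived from the F statistic and the 95% interval from the t distribution on 8.381 degrees of freedom. Of these, 6.381 came from the prior that is shared across genes. CPM used TMM library sizes. DESeq2 1.42.0 was the first alternative. The procedure was tested on simulated data, in which the planted changes were larger than the differences estimated for *Meox1* and *Tcf7l2*. Lengths and GRCm38 coordinates were taken from GENCODE vM21 by symbol (97.9% of 23284 matched), and none were converted from mm9.

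The 9 genes, the related lists and the markers were chosen with earlier results of these data known. Besides the 9 and *Osr1*, the text names each related gene past the threshold, the 2 with the largest change per list at a mean of at least 1 CPM, marker genes as level checks, and the 3 profiles nearest to a called factor, of which 1 is not reported here. *Pax9*, *Nkx3-2* and *Uncx* fall outside this rule and were named after their values were seen, to describe their list. Figures were drawn with matplotlib 3.10.9 in Python 3.11.15.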

Additional observations from a re-analysis of the deposited data

How the results depend on the processing

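*Osr1* passed the threshold under all 13 alternatives and *Meox1* under 10. The number of the 9 factors called was 2 with DESeq2, 0 with no filter, 0 with the replicate number as a block, 0 at an adjusted p under 0.05 and 0 to 2 with single samples left out. Over all genes, 508 were called with DESeq2, 127 with no filter, 130 at an adjusted p under 0.05 and 191 to 950 with single samples left out, beside 285 as reported; 950 were found without GCE/+ replicate 2 and 740 without GCE/GCE replicate 1. Of the related genes, 6 were called with DESeq2, 3 with a robust fit, 4 with the block and 3 to 7 when samples were left out. The *Meox1* log2 fold change was 0.4039 with no filter, 0.4092 with the block (adjusted p = 0.1098, edgeR) and 0.38 to 0.43 when samples were left out. That of *Tcf7l2* was -0.3032 with DESeq2 and -0.35 to -0.26 when samples were left out. When samples were left out, the direction turned for *Prrx1* (-0.11 to 0.0758), *Twist1* (-0.23 to 0.0036), *Twist2* (-0.40 to 0.0358) and *Lmx1b* (-0.35 to 0.19), and for no other factor. The cause was not tested. The replicate numbers were not shown to pair the samples, since the deviations of same-numbered samples correlated at -0.006 over 15054 genes. Log2 fold changes rose with transcript length over all genes (Spearman 0.256), and with offsets for that trend the *Meox1* value was 0.45 (adjusted p = 0.03627, edgeR). The intervals of *Tcf7l2*, *Prrx2*, *Twist2*, *Lmx1b* and *Shox2* extend to a log2 fall as large as the rise of *Meox1*, so a difference of that size was not excluded at this number of samples.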
